A study of Mus musculus with 2 samples.

Results

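Ribosome biogenesis and nucleolar genes were described in macrophages sorted from the bone marrow and the spleen of mice with acute myeloid leukaemia. The genes were chosen by name from the deposited gene tables: symbols beginning with Nop, Utp, Rrp or Nol and a digit, symbols beginning with Polr1, and Ncl, Npm1, Fbl, Dkc1, Nhp2, Gar1, Bop1, Pes1, Wdr12 and Nolc1. This gave 47 of the 16428 genes with a read in either library, and each of the 47 had a read in both libraries. The rule reads names only and uses no expression value.

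Both libraries came from C57BL/6J mice, 6 to 8 weeks old per the labels, that had received 500000 GFP+ MLL-AF9 leukaemia cells without irradiation and carried the leukaemia for 15 days, in a model where survival was 25 to 30 days. MLL-AF9 is a fusion oncogene of human myeloid leukaemia. Which markers were used for sorting, how GFP+ cells were treated in the sort and how many mice went into each library is not given in the sources used here, and no macrophages from leukaemia-free mice entered the comparison. There was 1 library per tissue, so there is no replicate check. What follows compares those libraries, and each interval covers counting error only.

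Ribosomes are built in the nucleolus. RNA polymerase I copies the ribosomal RNA genes into a long precursor, small nucleolar ribonucleoproteins (snoRNPs) modify that precursor at sites set by guide RNAs, and separate sets of assembly factors fold, cut and export the small and the large subunit. Cells that grow and divide make many ribosomes, and the transcription factor MYC is known for raising the genes of this machinery, so the group is often read as a gauge of cell growth.

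Letters near the start sites of these genes were examined first, because the E-box CACGTG is the sequence that MYC and MAX bind and because the ETS core CCGGAAG is common in promoters of housekeeping genes. RefSeq windows on GRCm38.p6, from 250 bases before to 50 bases after each start, were found for 38 of the 47 genes. Those windows held CACGTG, which reads the same on both strands, in 7 of the 38 genes (18.4%), against 8.09% of all 27025 genes in the table and 10.8% of the 12842 genes in it that had reads here. The E-box was not particular to these genes. In the related lists described below its share was 29.6% (other small subunit genes), 26.7% (RNA polymerase III), 25.8% (other large subunit genes), 21.4% (RNA polymerase I factors) and 8.33% (RNA exosome). Among the ribosomal protein lists it was lower, at 9.52% (cytosolic) and 7.46% (mitochondrial), both below the 10.8% of genes with reads. Within the group, 5 of 13 small subunit genes and 2 of 11 large subunit genes with windows held it, and no gene of the other roles did. The 7 genes were Nol11, Nop2, Pes1, Rrp7a, Utp14b, Utp18 and Utp20. In 5 of them the match lay before the start, and those sequences are shown, 5′ to 3′ on the gene's strand, with the E-box in capitals:
Nol11: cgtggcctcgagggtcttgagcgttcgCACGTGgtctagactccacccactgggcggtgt
Nop2: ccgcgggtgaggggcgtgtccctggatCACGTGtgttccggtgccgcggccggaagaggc
Rrp7a: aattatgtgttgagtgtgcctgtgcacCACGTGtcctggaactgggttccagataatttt
Utp14b: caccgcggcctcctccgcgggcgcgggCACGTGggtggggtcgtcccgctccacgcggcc
Utp18: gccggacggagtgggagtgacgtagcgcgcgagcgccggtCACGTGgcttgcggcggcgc
These windows lie at chr11:107189392-107189451 (minus strand) for Nol11, chr6:125131796-125131855 (plus) for Nop2, chr15:83122977-83123036 (minus) for Rrp7a, chr1:78658350-78658409 (plus) for Utp14b and chr11:93885767-93885826 (minus) for Utp18. The E-box began 43, 60, 208, 63 and 20 bases before the start in that order. Exons of Utp14b overlap those of Acsl3 on the same strand by up to 140 bases in GENCODE M21.

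The ETS core, searched as CCGGAAG and on the other strand as CTTCCGG, was in the windows of 13 of the 38 genes (34.2%), against 9.93% of all genes in the table and 17.1% of those with reads. It was shared by genes on both sides of the comparison below, so pairs of each side are shown, with the core in capitals. Nolc1 and Nhp2 were among the genes most shifted to bone marrow, and Rrp36 and Nol7 were higher in spleen:
Nolc1: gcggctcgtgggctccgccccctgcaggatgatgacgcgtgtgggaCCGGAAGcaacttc
Nhp2: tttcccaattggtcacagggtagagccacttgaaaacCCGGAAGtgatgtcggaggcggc
Rrp36: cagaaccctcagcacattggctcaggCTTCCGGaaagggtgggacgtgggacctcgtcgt
Nol7: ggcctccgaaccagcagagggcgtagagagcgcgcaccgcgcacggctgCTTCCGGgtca
Their positions are chr19:46075787-46075846 (plus) for Nolc1, chr11:51619713-51619772 (plus) for Nhp2, chr17:46674330-46674389 (minus) for Rrp36 and chr13:43398316-43398375 (plus) for Nol7. Pairs from each side thus carried the same letters within 60 bases of the start.

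The effective depths after scaling were 9405947 reads (bone marrow) and 8457857 reads (spleen). The 47 nucleolar genes took 56540 and 33201 of the uniquely placed reads, or 0.587% and 0.402% of each library. Of the 47 genes, 46 were measured, which means 10 reads or more and 1 CPM (reads scaled to library size) or more in a library, and 45 of these had at least 100 reads in both libraries. Nol3, an apoptosis repressor that carries a nucleolar name, had 1 read in bone marrow and 4 in spleen and was not measured. The defining macrophage markers were present in both libraries at low shares of the reads: the sum over 14 such genes was 614 CPM in the bone marrow library and 1268 CPM in that of spleen, with none at 0. In the same libraries 14 granulocyte precursor markers summed to 48673 and 2206 CPM, 10 stem and progenitor markers to 1587 and 390 CPM, 10 B cell markers to 459 and 4828 CPM, 10 T cell markers to 188 and 1536 CPM, 10 dendritic cell markers to 206 and 1233 CPM, and 9 erythroid markers to 358 and 221 CPM. The stem cell gene Mecom, at 53 reads in bone marrow and 0 in spleen, was the one marker listed at 0. In bulk RNA a change in the share of a cell type and a change in RNA per cell cannot be told apart, and the part of these other cells in the values below was not tested.

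Most nucleolar genes were somewhat higher in bone marrow, by amounts that differed between genes and roles. Of the 46 measured genes, 38 had the higher CPM in bone marrow and 8 had it in spleen. The median log2 ratio (bone marrow minus spleen on log2(CPM + 1), a 1-CPM offset that shrinks ratios of low genes) was 0.37, a 1.29-fold difference. Over all 12970 measured genes the median was 0.03, and 51.4% had the higher CPM in bone marrow. At least 2-fold on that scale, 3 of the 46 (6.52%) were higher in bone marrow, where the background was 14.1% of all measured genes, and 0 were higher in spleen, where it was 14.6%. At least 1.5-fold, 15 of the 46 (32.6%) were higher in bone marrow against a background of 24.7%, and 0 in spleen against 25.1%. The 2-fold count was therefore below its background in both directions, and no gene lay far to the spleen side. The log2 ratios of the 46 genes ran from -0.51 to 1.25, with an interquartile range of 0.11 to 0.68, while that of all genes ran from -0.59 to 0.58. The 95% counting interval of the CPM ratio lay above equal levels for 31 genes and below for 5, against 38.2% and 35.9% of all measured genes, and it spanned equal levels for 10. That count follows read depth as well as the size of a difference.

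**Figure D1:**
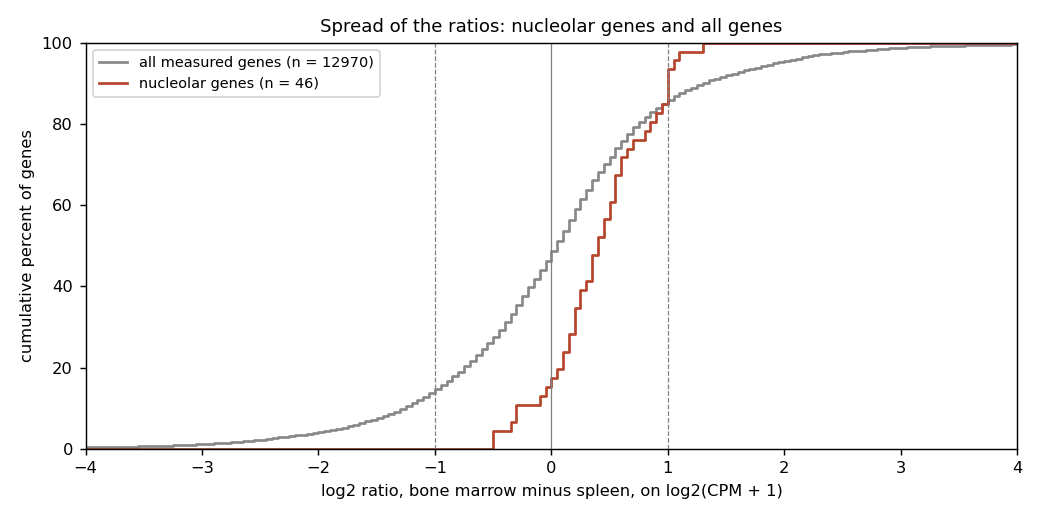
Cumulative percent of genes (y axis) up to each log2 ratio of bone marrow to spleen on log2(CPM + 1) (x axis), for the 46 measured nucleolar genes and all 12970 measured genes, with dashed lines at 2-fold. The nucleolar curve rises steeply between -0.51 and 1.25 with its median at 0.37, and the curve of all genes is centred near 0.03 and has long tails on both sides.

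Among themselves the genes were spread over a wide range of abundance. Levels of different genes were compared by the deposited RPKM, which scales reads to gene length and library size. The median over the 46 genes was 24.1 RPKM in bone marrow and 20.5 in spleen, against 10.7 and 11.3 over all measured genes. Npm1, a histone and ribosome chaperone of the nucleolus, came first in both libraries at 751 RPKM (bone marrow) and 444 RPKM (spleen). Fbl, the methyltransferase of box C/D snoRNPs, came next at 167 and 116 RPKM. Ncl, the abundant RNA-binding protein nucleolin, was at 165 and 85.5 RPKM and ranked 3 in bone marrow and 4 in spleen. In bone marrow those were followed by Nop56 at 113 RPKM (82.9 in spleen), Rrp1 at 99.5 (93.6) and Polr1d at 84.5 (82.0), while in spleen Rrp1 ranked above Ncl and Nop56. The place of Ncl depends on gene length: the deposited length was 8257 bases, its coding sequence in GENCODE M21 is 2121 bases, and its last exon there is 5978 bases long. With reads per kilobase of coding length, a measure chosen after seeing the data, Ncl ranked second in both libraries and Fbl ranked 5 and 6. At the low end, Utp14b was at 1.46 RPKM (bone marrow) and 2.29 RPKM (spleen), Utp23 at 5.38 and 8.17, and Nol3 at 0.0362 and 0.169.

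**Figure D2:**
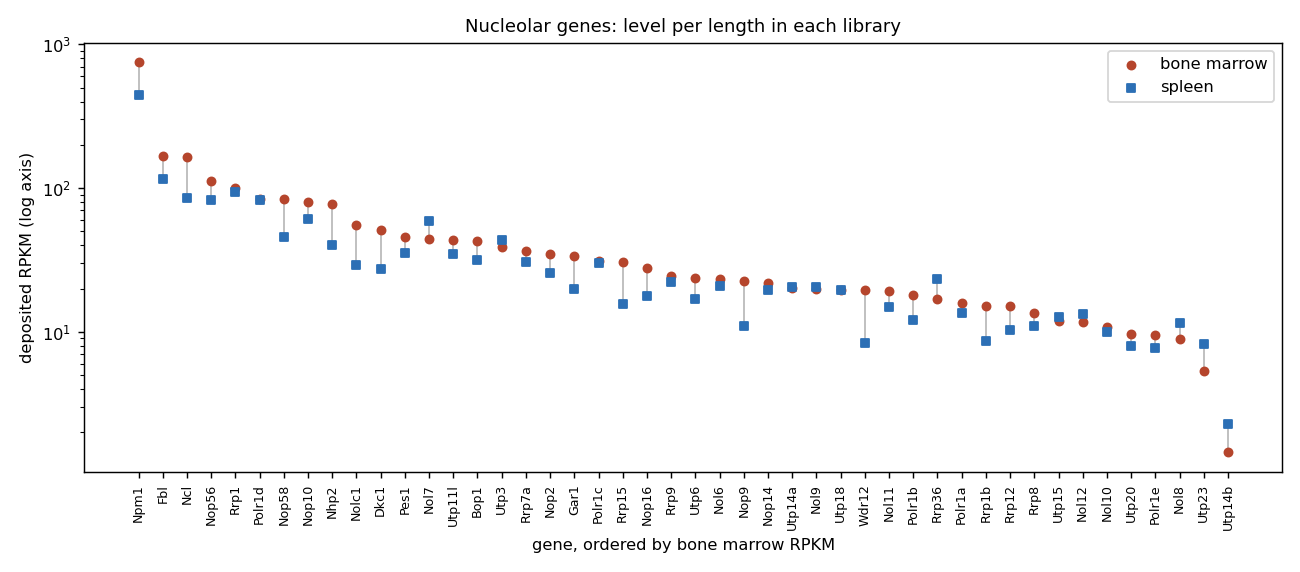
Deposited RPKM on a log axis (y) of the 46 measured nucleolar genes (x, ordered by the bone marrow value), with 1 point per library and a grey line joining the points of a gene. Npm1 stands apart at 751 and 444 RPKM, most genes lie between 5 and 100 RPKM, and the spleen point lies above the bone marrow point for a few genes such as Nol7 and Rrp36.

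The 3 abundant nucleolar phosphoproteins were nearly 2-fold higher in bone marrow. Ncl had 13117 bone marrow reads and 5833 spleen reads, or 1395 and 690 CPM, a ratio of 2.02 (95% interval 1.96 to 2.09). Npm1, a gene whose product is often displaced from the nucleolus by mutation in human myeloid leukaemia, had 10410 and 5284 reads, or 1107 and 625 CPM, a ratio of 1.77 (1.71 to 1.83). Npm1 has processed pseudogenes, and the tables hold uniquely placed reads only, so its count is uncertain. Nolc1, the chaperone that links snoRNPs and RNA polymerase I, had 1931 and 876 reads, or 205 and 104 CPM, a ratio of 1.98 (1.83 to 2.15). Bone marrow was the higher library for each, and the intervals of Ncl and Npm1 did not overlap each other. Ncl and Npm1 together held 41.6% of the bone marrow reads of the group and 33.5% of its spleen reads. The summed CPM of all 47 genes was 6011 (bone marrow) and 3925 (spleen), a ratio of 1.53 (1.51 to 1.55), and 1.34 (1.32 to 1.37) for the 45 genes without Ncl and Npm1.

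The box H/ACA snoRNP proteins, which carry out pseudouridylation of ribosomal RNA, came close to the same size. Dkc1, the pseudouridine synthase dyskerin, had 1387 bone marrow reads and 638 spleen reads, or 147 and 75.4 CPM, a ratio of 1.95 (1.78 to 2.15). Nhp2, a core protein of the particle, had 746 and 334 reads, or 79.3 and 39.5 CPM, a ratio of 2.01 (1.76 to 2.29) that on log2(CPM + 1) was 0.99 and so just inside the 2-fold rule. Gar1 was at 43.6 and 24.8 CPM, a ratio of 1.76 (1.48 to 2.08). Nop10, the smallest core protein, was the least shifted of the 4 at 57.3 and 41.6 CPM, a ratio of 1.38 (1.20 to 1.58), with an interval that did not overlap that of Dkc1 or Nhp2. All 4 intervals lay above equal levels, and the median log2 ratio was 0.87.

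The box C/D snoRNP proteins, which place methyl groups on ribosomal RNA, were also higher in bone marrow, and unequally. Nop58 had 1596 bone marrow reads and 744 spleen reads, or 170 and 88.0 CPM, a ratio of 1.93 (1.77 to 2.11). Its partner Nop56 had 2065 and 1305 reads, or 220 and 154 CPM, a ratio of 1.42 (1.33 to 1.53), and Fbl had 1859 and 1109 reads, or 198 and 131 CPM, a ratio of 1.51 (1.40 to 1.63). The interval of Nop58 lay wholly above those of Nop56 and Fbl, so the particle's subunits differed by more than counting error within these libraries.

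**Figure D3:**
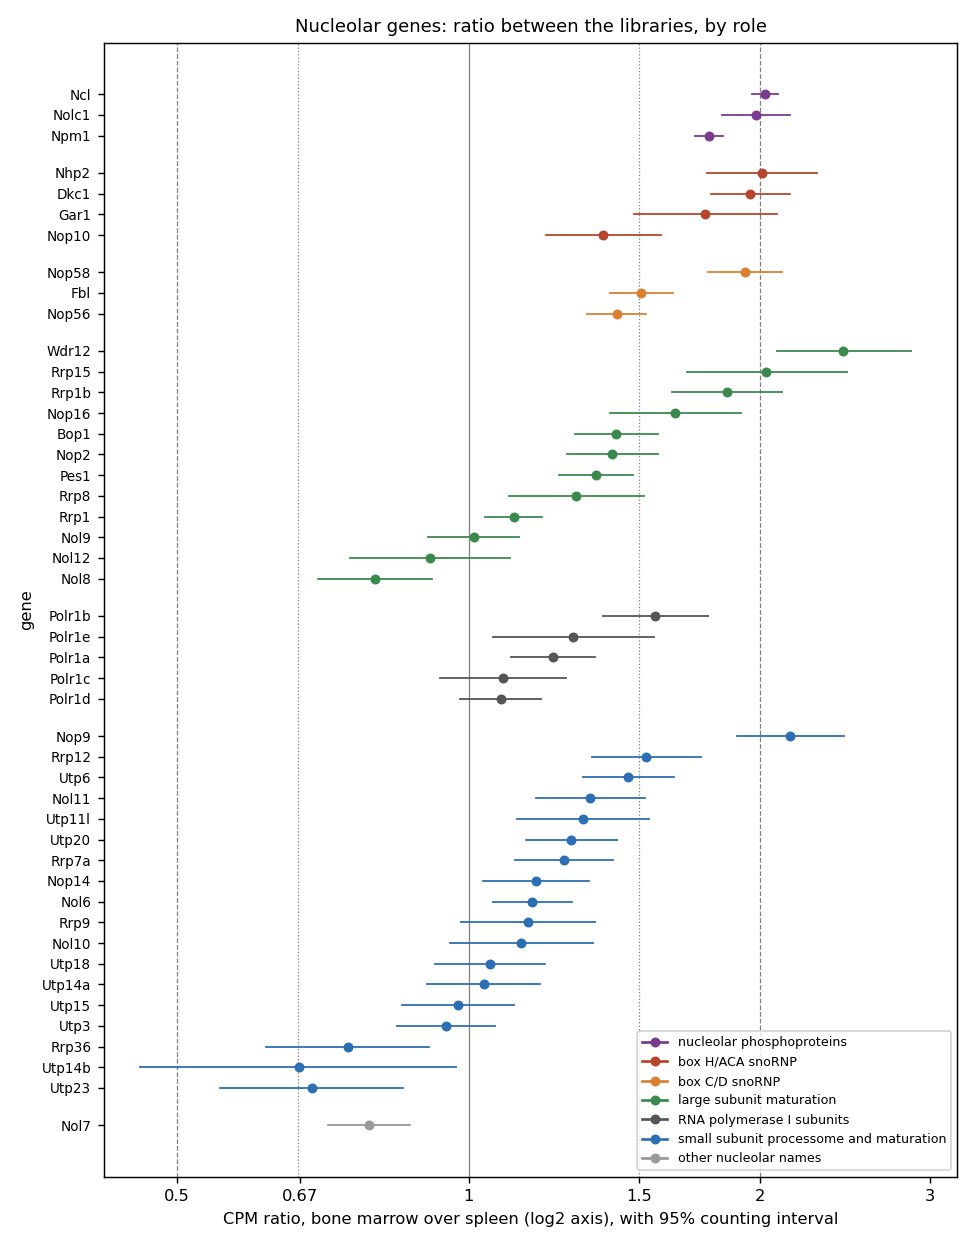
CPM ratio of bone marrow to spleen on a log2 axis (x) for each of the 46 measured nucleolar genes (y), grouped and coloured by role. Points are ratios, bars are 95% counting intervals, and dotted and dashed lines mark 1.5-fold and 2-fold; phosphoproteins and snoRNP proteins sit between 1.38 and 2.02, and small subunit genes range from 0.668 (Utp14b) to 2.15 (Nop9).

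Factors that mature the large subunit ranged widely. Of the 12 genes, 4 (33.3%, against 24.7% of all measured genes) passed 1.5-fold towards bone marrow. None passed it towards spleen (against 25.1%), 8 did not pass it in either direction, and the median log2 ratio was 0.46. Wdr12 had the largest ratio of all 46 genes, with 586 bone marrow reads and 216 spleen reads, or 62.3 and 25.5 CPM, a ratio of 2.44 (2.08 to 2.86). The share of its length covered by reads was 89.7% in bone marrow and 64.9% in spleen, against group medians of 95.8% and 93.6%. Wdr12 works in the PeBoW complex with Pes1 and Bop1, and those partners were less shifted: Pes1 had 1275 and 846 reads, a ratio of 1.36 (1.24 to 1.48), and Bop1 had 1029 and 651 reads, or 109 and 77.0 CPM, a ratio of 1.42 (1.29 to 1.57). The interval of Wdr12 did not overlap either partner's.

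The rest of the large subunit genes ran from Rrp15, with a ratio of 2.03 (1.68 to 2.46), to Nol8 on the spleen side. Rrp15 had 359 bone marrow reads and 159 spleen reads, or 38.2 and 18.8 CPM. Rrp1b had 705 and 343 reads (ratio 1.85) and Nop16 at 49.1 and 30.0 CPM (ratio 1.64). Rrp1b and Rrp1 are relatives, and Rrp1, the more abundant, was nearly level at 204 and 184 CPM, a ratio of 1.11 (1.04 to 1.19). Nop2, an RNA methyltransferase, was at 93.2 and 66.2 CPM (ratio 1.41) and Rrp8, another methyltransferase, at 40.2 and 31.1 CPM (ratio 1.29). Nol9, a polynucleotide kinase, had 716 and 636 reads and a ratio of 1.01 (0.908 to 1.13), and Nol12 had 224 and 221 reads and a ratio of 0.911 (0.753 to 1.10), so neither differed detectably at this depth. Nol8 was 1.25-fold higher in spleen (1.09 to 1.43), at 54.9 CPM against 43.9 in bone marrow.

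The 5 subunits of RNA polymerase I that the names had captured were mostly shifted little. Polr1a, the largest subunit, had 933 bone marrow reads and 687 spleen reads, or 99.2 and 81.2 CPM, a ratio of 1.22 (1.11 to 1.35). Polr1b, which forms the catalytic centre with Polr1a, had 699 and 403 reads, or 74.3 and 47.6 CPM, a ratio of 1.56 (1.38 to 1.77). It was the one gene of these 5 past 1.5-fold, and its interval did not overlap that of Polr1a. Cd3eap, a subunit outside the naming rule that is taken up below, had a ratio of 1.66 (1.36 to 2.03). Polr1e was at 28.5 and 22.2 CPM, a ratio of 1.28 (1.06 to 1.55). Polr1c and Polr1d, which are shared with RNA polymerase III, were at 41.5 and 38.2 CPM and at 99.2 and 91.9 CPM, and both intervals spanned equal levels (0.934 to 1.26 and 0.981 to 1.19). The median log2 ratio of the 5 subunits was 0.29.

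The small subunit processome, the large particle that folds and cuts the precursor for the small subunit, had the smallest median ratio among the 6 roles with more than 1 measured gene that the names had captured. Of 18 genes, 2 (11.1%, below the 24.7% of all measured genes) passed 1.5-fold towards bone marrow. The other 16 passed it in neither direction, and the median log2 ratio was 0.21. The first of the 2 was Nop9, with 837 bone marrow reads and 350 spleen reads, or 89.0 and 41.4 CPM, a ratio of 2.15 (1.90 to 2.44). Exons of Nop9 overlap those of Cideb on the other strand, by up to 522 bases in GENCODE M21, and strand use in the counting is not given, so its count is uncertain. The second was Rrp12, an export factor, at 67.0 and 43.9 CPM, a ratio of 1.53 (1.34 to 1.74). Utp20, one of the longest proteins of the particle, had 821 and 578 reads, or 87.3 and 68.3 CPM, a ratio of 1.28 (1.15 to 1.42). Utp6, Nol11, Utp11l, Rrp7a, Nop14 and Nol6 had ratios between 1.16 and 1.46 with intervals above equal levels.

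A further 6 genes of the particle were level within counting error, and 3 were higher in spleen. Rrp9, Nol10, Utp18, Utp14a, Utp15 and Utp3 had ratios from 0.948 to 1.15 and intervals that spanned equal levels. Utp23 had 151 bone marrow reads and 197 spleen reads, or 16.1 and 23.3 CPM, and was 1.45-fold higher in spleen (1.17 to 1.81). Rrp36 had 196 and 235 reads, or 20.8 and 27.8 CPM, and was 1.33-fold higher in spleen (1.10 to 1.62). Utp14b, a copy of Utp14a made by retrotransposition and known for its need in sperm formation, had 52 and 70 reads, or 5.53 and 8.28 CPM, and its log2 ratio was -0.51 (spleen over bone marrow interval 1.03 to 2.19). Reads of the part shared with Acsl3 cannot be assigned with certainty. Utp14a, the ubiquitous form, had 474 and 411 reads, or 50.4 and 48.6 CPM, with a log2 ratio of 0.05 that became -0.01 with library totals alone and with the deposited RPKM. Nol7, a nucleolar protein outside these roles, was 1.27-fold higher in spleen (1.15 to 1.40), at 104 CPM against 82.1.

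Intron-encoded snoRNAs gave a feature that the choice by name had not used. Of the 46 measured genes, 4 (8.70%) hold an annotated snoRNA gene on the same strand within their borders in GENCODE M21, against 1.63% of the 12404 measured genes that could be matched. They were Nop56 with 5, Nop58 with 4, Ncl with 3 and Dkc1 with 1. Their median log2 ratio was 0.95, and that of the 42 other nucleolar genes was 0.35; among all measured genes the hosts had a median of 0.11 and the others 0.05. The 4 hosts are all snoRNP or phosphoprotein genes, so hosting a snoRNA cannot be told apart from role. Genes of the same roles without a snoRNA had log2 ratios from 0.45 (Nop10) to 0.99 (Nhp2), and the host Nop56 had 0.51. By promoter letters, the 7 genes with an E-box had a median of 0.35 and the 31 without it 0.34. The 13 with the ETS core had 0.18 and the 25 without it 0.36. Ncl, Dkc1, Nop58 and Wdr12, among the most shifted, had no CACGTG in the windows examined.

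Genes of the same pathway that the names had not captured were given by 5 further lists, of 120 measured genes in all. Past 1.5-fold were 21 towards bone marrow (17.5%, against 24.7% of all measured genes) and 2 towards spleen (1.67%, against 25.1%). Past 2-fold were 2 (1.67%, against 14.1%) and 1 (0.833%, against 14.6%), so each share was below that of all genes. Their median log2 ratio was 0.21. The other large subunit genes had 10 of 40 (25%, near the 24.7% of all genes) past 1.5-fold towards bone marrow and 1 (2.5%) towards spleen (median 0.24). Urb2 was at 63.5 and 34.3 CPM and Tma16 at 20.9 and 9.34 CPM, while Mdn1, the giant ATPase that strips factors from the large subunit, went the other way at 96.6 and 210 CPM, a ratio of 0.461 (0.425 to 0.499). Noc2l and Nsa2, with the most reads of that list, were at 194 and 147 CPM and at 201 and 232 CPM. The other small subunit genes had 4 of 31 (12.9%, against 24.7%) past 1.5-fold in bone marrow and 0 in spleen (median 0.20). They were led by Tbl3 at 80.8 and 46.8 CPM, Cirh1a at 56.2 and 34.9 and Rcl1, with a ratio of 1.56. Heatr1 and Wdr43, the most counted of them, were at 130 and 106 CPM and at 130 and 116 CPM.

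The RNA exosome, which trims ribosomal RNA ends, had 13 of 14 genes (92.9%, against 51.4% of all measured genes) with the higher CPM in bone marrow. Its median was 0.50, and 2 genes (14.3%, against 24.7% of all measured genes) were past 1.5-fold towards bone marrow. Exosc7 was at 41.6 and 24.9 CPM, Mphosph6 at 20.9 and 12.4 and C1d at 46.5 and 31.7. The 15 RNA polymerase I factors and remaining subunits, some shared with other polymerases, had a median of 0.09 and went both ways. Their counting intervals lay above equal levels for 5 genes, below for 3 and spanned them for 7. Past 1.5-fold was 1 of the 15 (6.67%, against 24.7%), the subunit Cd3eap at 30.0 and 18.1 CPM. Ubtf, the factor that keeps ribosomal RNA genes open, had 2351 bone marrow reads and 2074 spleen reads, or 250 and 245 CPM, a ratio of 1.02 (0.960 to 1.08). Taf1a was at 12.9 and 18.8 CPM. RNA polymerase III and its factors, which make the smallest ribosomal RNA of the large subunit, went both ways, with a median of 0.11. Of 20 genes, 12 had the higher CPM in bone marrow and 8 in spleen. Past 1.5-fold were 4 in bone marrow (20%, against 24.7% of all measured genes) and 1 in spleen (5%, against 25.1%). Among the 4 were Gtf3c5 at 41.8 and 23.6 CPM and Gtf3c4 at 65.1 and 38.1 CPM.

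The proteins of the finished ribosome did not share the shift of the genes that build it. Of 83 measured cytosolic ribosomal protein genes, 24 had the higher CPM in bone marrow and 59 in spleen, 80 lay within 1.5-fold, and the median log2 ratio was -0.15. Their reads made up 6.77% of the bone marrow library and 7.76% of the spleen library. Fau, which encodes a small subunit protein fused to a ubiquitin-like part, was at 682 and 1115 CPM, and the most counted, Rpsa and Rplp0, were nearly level at 2656 and 2496 CPM and at 2351 and 2316 CPM. Rps27l was at 58.8 and 32.3 CPM and Rps4y2 at 15.7 and 7.80 CPM. Ribosomal protein genes have many pseudogenes, so their uniquely placed counts are uncertain. The mitochondrial ribosomal proteins, by contrast, had 71 of 76 genes with the higher CPM in bone marrow and a median of 0.47, and 18 (23.7%, near the 24.7% of all measured genes) past 1.5-fold, with Mrpl12 at 84.1 and 47.8 CPM, Mrpl18 at 83.8 and 45.5 and Mrps10 at 28.8 and 14.1. These differences between lists are descriptions of 2 libraries and were not tested.

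**Figure D4:**
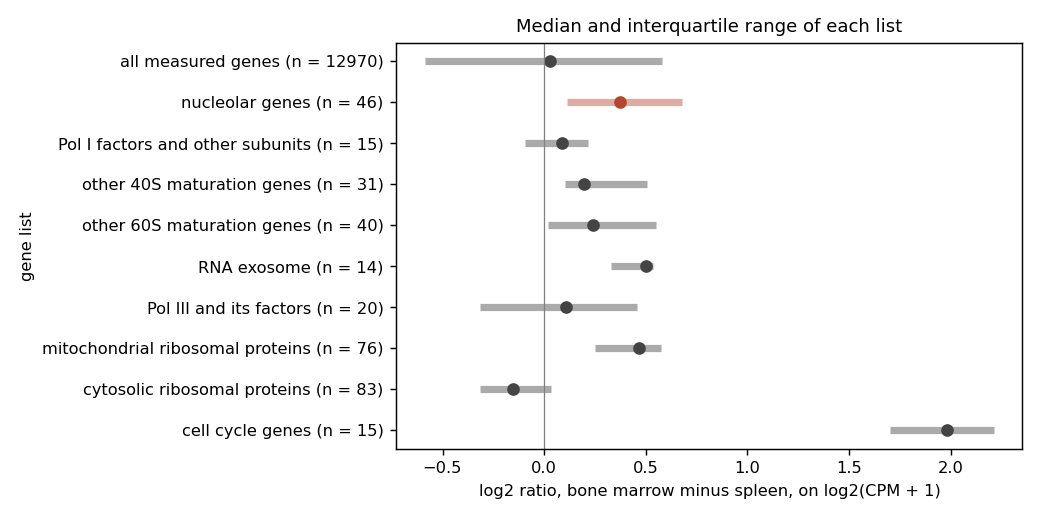
Median (point) and interquartile range (bar) of the log2 ratio of bone marrow to spleen on log2(CPM + 1) (x axis) for the measured genes of each list (y axis), with the number of genes. The nucleolar genes have a median of 0.37, cytosolic ribosomal proteins -0.15, mitochondrial ribosomal proteins 0.47 and cell cycle genes 1.98.

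Genes of dividing cells were higher in the same library by a larger amount. All 15 listed cell cycle genes passed 2-fold towards bone marrow, against 14.1% of all measured genes. Their median log2 ratio was 1.98, and their summed levels were 5977 CPM (bone marrow) and 1655 CPM (spleen). Mki67, the proliferation marker, was at 848 and 298 CPM and Top2a at 862 and 192 CPM, and Ccnb1, Rrm2 and Cdk1 were at 149 and 28.1, 384 and 74.0, and 127 and 25.8 CPM. Myc had 2380 bone marrow reads and 998 spleen reads, or 253 and 118 CPM, a ratio of 2.14 (1.99 to 2.31), and its partner Max had 1028 and 995 reads, or 109 and 118 CPM, a ratio of 0.929 (0.851 to 1.01). Granulocyte precursor and most progenitor markers were higher in bone marrow as well, with all 14 and 8 of 10 past 2-fold. They were led by Mpo at 8543 and 103 CPM, Ms4a3 at 386 and 7.09, Cd34 at 257 and 6.15 and Hlf at 53.7 and 0.828. Of the progenitor markers not past 2-fold, Kit was at 252 and 135 CPM. Flt3, which is also in the dendritic cell list, went the other way at 71.1 and 118 CPM. Macrophage markers were past 2-fold in spleen for 7 of 14 genes (50%, against 14.6% of all measured genes) and in bone marrow for 0. The largest ratios were those of Spic at 4.15 and 38.2 CPM and Mertk at 4.04 and 27.1. The macrophage list was not uniform: 2 of the 14 had the higher CPM in bone marrow, Cd14 at 13.6 and 6.74 and Fcgr1 at 12.3 in both. Siglec1 was nearly level at 18.6 and 19.3 CPM. All 10 B cell and all 10 T cell markers and 8 of 10 dendritic cell markers were past 2-fold in spleen, such as Cr2 at 1.38 and 318 CPM, Fcer2a at 4.47 and 317, Cd4 at 18.7 and 221, Cd8b1 at 7.65 and 109, Fscn1 at 2.45 and 104 and Ccr7 at 8.29 and 264. Erythroid markers were divided, with Gata1 at 31.0 and 7.92 CPM and Tfrc at 248 and 130. The part of dividing cells and of these other cell types in the nucleolar values was not tested.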

How the data were processed

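RNA-seq gene tables of 2 libraries, 1 of bone marrow and 1 of spleen macrophages, were used. Each table, per the file headers, lists Entrez genes with a unique-read count, RPKM, gene length and the coverage of that length in percent, as the authors made them. The sources used here do not give the aligner, the counting program, strand use, the genome build or the annotation. A gene absent from a table was given 0 reads, and tables were joined on the Entrez identifier. A count of 0 allows up to 3 reads, 0.319 CPM in bone marrow and 0.355 in spleen. Counts were scaled by TMM (edgeR 4.0.16, R 4.3.3) to effective depths of 9405947 and 8457857 reads, and log2 ratios were taken with a pseudocount of 1 CPM. With 1 library per tissue no test between tissues was possible, so genes were called by size, at least 2-fold or 1.5-fold. Ratios of CPM have exact conditional binomial (Clopper-Pearson) 95% intervals (scipy 1.17.1), for counting error only, since reads after PCR with no molecular identifiers may repeat the same molecule. The procedure was checked on simulated counts with counting error only and few changed genes, balanced in direction. That check does not cover differences as broad as those between the libraries used here. The naming rule reads no expression value, but the genes and lists were chosen with earlier results of these data known. All genes of the group are accounted for; values are given for those past 2-fold, the 6 largest ratios in each direction with at least 100 reads, the 6 highest RPKM and a set of anchors, with others in ranges, and in each pathway list for up to 3 largest ratios and the 2 most counted. The values of 1 gene that this rule names are not reported here. Symbols and start-site windows are from RefSeq (GRCm38.p6), which matched 16379 of 16428 identifiers, and gene borders, exons and snoRNAs from GENCODE M21 (GRCm38). The ETS core and the coding-length order were chosen after seeing the data. Exons of 13 of the 47 genes overlap another protein-coding gene, 12 on the opposite strand, including Bop1, Dkc1, Nhp2, Nol7, Pes1, Rrp1b and Wdr12.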

Additional observations from a re-analysis of the deposited data

How the results depend on the processing

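The count of nucleolar genes at least 2-fold higher in bone marrow, 3, was 5 with a pseudocount of 0.1 and 4 with current symbols. It was 2 with library totals alone, 2 without Ncl and Npm1, and 1 with the deposited RPKM. Several genes lie close to that limit. The count for spleen was 0 at both sizes under each alternative run: DESeq2 size factors (DESeq2 1.42.0), library totals alone, TMM without marker genes, a pseudocount of 5 or 0.1, the deposited RPKM, genes below the floor kept, a floor raised to 10 CPM, current symbols and, added after seeing the data, leaving out Ncl and Npm1. Across these the count at least 1.5-fold higher in bone marrow ranged from 12 to 17 and the median log2 ratio from 0.30 to 0.38. With library totals alone the large subunit genes with the higher CPM in bone marrow numbered 9 in place of 10, and the small subunit genes 12 in place of 13. In that setting the RNA polymerase I factors had a median of 0.02 in place of 0.09 (8 above zero in place of 11), the RNA polymerase III list 0.04 in place of 0.11, the cytosolic ribosomal proteins -0.22 in place of -0.15 (17 above zero in place of 24) and the mitochondrial ones 0.40 in place of 0.47 (67 in place of 71). Of 162 values of 27 single genes under 6 alternatives, 158 stayed inside the counting interval. The 4 outside it were those of Ncl and Npm1 with library totals alone and with the deposited RPKM. The log2 ratio of Ncl was 0.95 and 0.94 in place of 1.01, and that of Npm1 was 0.76 in both in place of 0.82. For these 2 genes the scaling choice thus moved the ratio by more than counting error. Utp14a alone changed sign, in 2 of the 162 values. No paired analysis was possible because each tissue had 1 library. No library could be left out for the same reason, and depth limits what can be said of Nol3 and Utp14b.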

Other observations

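The choice by deposited symbol missed 4 genes with reads whose current RefSeq symbols fall under it. Gltscr2, now Nop53, a large subunit assembly factor, had 2391 bone marrow reads and 2965 spleen reads, or 254 and 351 CPM, a log2 ratio of -0.46, so it would have been among the genes most shifted to spleen. Diexf, now Utp25, was nearly level at 31.5 and 32.5 CPM, and Cirh1a, now Utp4, was at 56.2 and 34.9 CPM. The row 8430427H17Rik, now Nol4l, had 154 bone marrow reads and 33 spleen reads, or 16.4 and 3.90 CPM, a ratio of 4.20, larger than that of any of the 46 measured genes. With these 4 the group had 50 measured genes and the same median log2 ratio of 0.37. Nol4, which also fits the names, had no row in either table.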
